A study of Mus musculus with 4 samples.

Results

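The mitochondrial ribosomal proteins were examined in tumor associated macrophages (TAMs) from propranolol treated and control mice. Members were the protein-coding genes whose mouse symbol begins with Mrpl or Mrps and a number, and there were 78 of them among the 54146 genes listed. By their place in the ribosome, 51 belong to the large subunit and 26 to the small subunit. The last, Mrps36, carries the family's name but is now counted outside the mitochondrial ribosome, and Mrps18a and Mrps30 sit in the large subunit in spite of their symbols. The cells came from C57BL/6 female mice aged 8 to 16 weeks that carried tumors of MCA205, a mouse fibrosarcoma line. Propranolol, a blocker of beta-adrenergic receptors, was given in the drinking water at 0.5 g/L from the day of inoculation, and control mice (labelled vehicle) were sampled alongside. CD11b+F4/80+ cells were sorted and their poly(A) RNA was sequenced, with 2 libraries in each group. Total counts were 13798249 and 23018142 in control libraries 1 and 2, and 39818103 and 16424081 in propranolol libraries 1 and 2. The number of mice behind each library is not given in the sources used here, so the p-values below measure the spread between these libraries.

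The mitochondrial ribosome translates the few messages encoded by mitochondrial DNA, all of which are core subunits of the respiratory chain and ATP synthase. All of its proteins are nuclear-encoded, made in the cytosol and imported. The large subunit (39S) forms the peptide bond and the small subunit (28S) reads the message. Some members have bacterial homologues, while others exist only in mitochondrial ribosomes.

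Of the 78 genes, 77 passed the filter on low counts. The exception was Mrpl53, a large subunit protein, with 3 and 7 counts in control and 8 and 11 in propranolol libraries. A gene was called when its adjusted p was under 0.05 (edgeR quasi-likelihood test, Benjamini-Hochberg over 14688 genes) and its change was more than 1.5-fold. By this rule 13 members (16.9%) were higher and 6 (7.79%) were lower in TAMs from propranolol treated mice, against a background of 12.2% and 15.6% of all tested genes. At an adjusted p under 0.05 alone, 26 members (33.8%) were higher and 7 (9.09%) lower, against 21.8% and 20.4% of all genes. Both propranolol libraries lay above both control libraries for 42 members (54.5%) and below them for 17 (22.1%), against 35.8% and 36.8% of all genes. The median log2 fold change was 0.20 over the 77 members, with quartiles of -0.18 and 0.45, and -0.019 over all tested genes. Without propranolol library 1 the median of the members was 0.12, and without propranolol library 2 it was 0.32. These directions held with trimmed mean (TMM) scaling, and the family median reversed without it. With library totals as the scale the median of the members was -0.033 and that of all genes -0.25. The distance between these medians was 0.22 under both scales. A change of scale moves every gene by nearly the same amount, so this comparison could not alter that distance. Without TMM, 2 members (Mrpl17 and Mrps34) were called higher and 11 lower, against 4.15% and 23.8% of all genes, and with upper-quartile factors 11 were called higher and 9 lower, against 9.65% and 17.2%. Without the filter on low counts 18 were called higher and 4 lower, against 8.19% and 7.57%. The propranolol libraries moved the split in opposite directions. With library 2 left out, 21 members were called higher and 1 lower, against 11.3% and 11% of all genes. Without control library 1 the counts were 18 and 3, against 12.4% and 10.4%. Without propranolol library 1 they were 11 and 9, against 12.1% and 15%. In bulk samples, fewer cells of a type and less RNA per cell cannot be told apart.

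**Figure D1:**
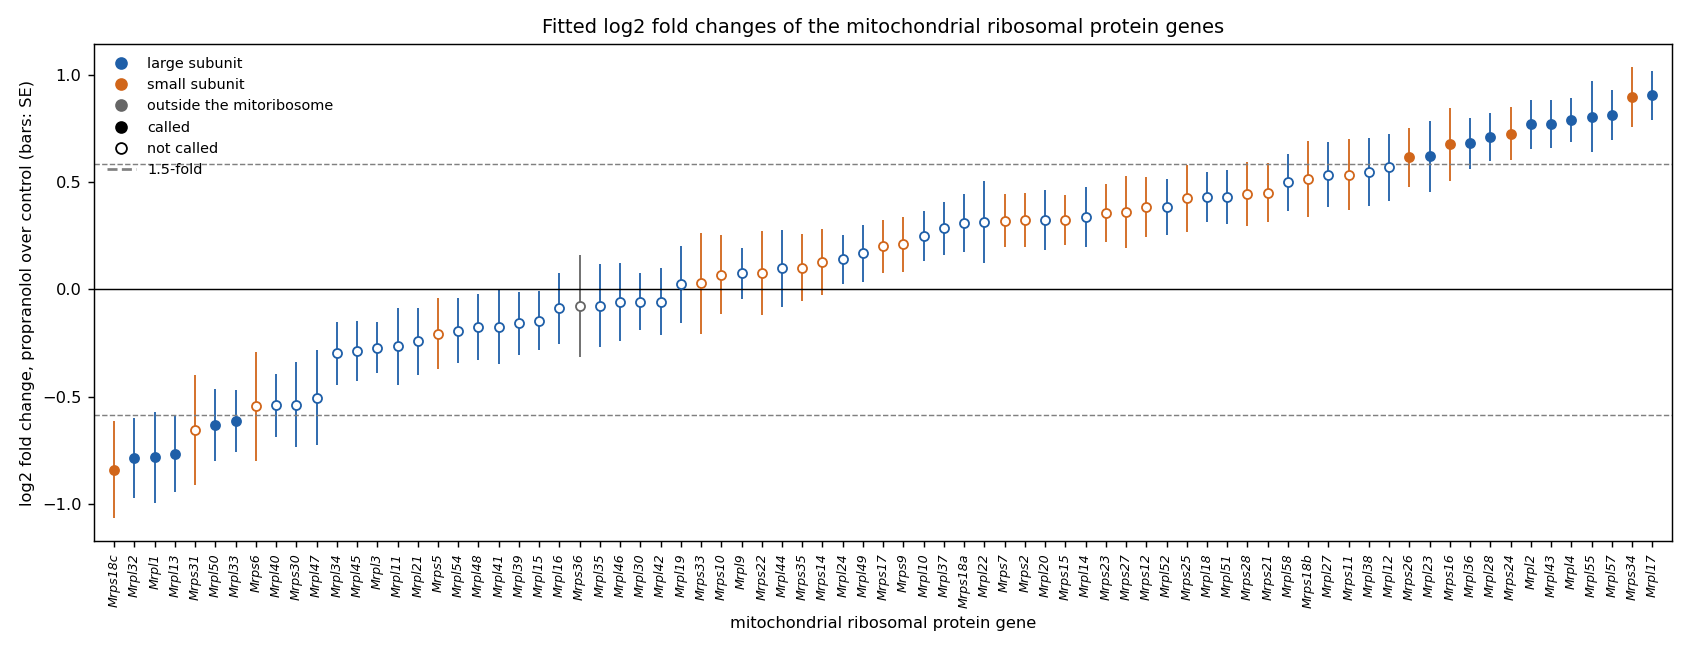
Fitted log2 fold changes (propranolol against control, TMM scale) of the 77 tested mitochondrial ribosomal proteins, each a point with its standard error, in rising order, with colours for the subunits, filled points for called members and dashed lines at 1.5-fold. The changes run from -0.84 for Mrps18c to 0.91 for Mrpl17, and without TMM the median of the members falls to -0.033.

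In the large subunit 27 of 50 tested members were higher and 23 lower, 9 were called higher (18%) and 5 lower (10%), against 12.2% and 15.6% of all genes, and the median log2 fold change was 0.09. In the small subunit 22 of 26 were higher, with 4 called higher (15.4%), 1 called lower (3.85%) and a median of 0.32. The difference between subunits was not tested. Within the large subunit the 30 proteins with bacterial homologues had 7 called higher (23.3%) and 4 lower (13.3%), with a median of 0.11, and the 20 tested proteins found only in mitochondrial ribosomes had 2 (10%) and 1 (5%), with a median of 0.02. Within the small subunit the 16 members with bacterial homologues had a median of 0.32 and the 10 mitochondria-specific members a median of 0.36. Mrps36 had a log2 fold change of -0.08 (SE 0.24, adjusted p = 0.822). These values are on the TMM scale, and without TMM every member's log2 fold change was lower, with a family median of -0.033. On that scale Mrpl17 in the large subunit and Mrps34 in the small were the only members called higher. Mrps18c, Mrps31 and Mrps6 of the small subunit were called lower, and the other lower calls were in the large subunit. Of all genes, 4.15% were called higher and 23.8% lower.

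Among large subunit members with bacterial homologues, Mrpl17 rose most. Its level was 37.1 and 39.9 CPM (counts scaled to the library size with TMM) in control and 75.3 and 69 CPM in propranolol libraries. The groups did not overlap, and the means were 38.5 ± 1.99 and 72.2 ± 4.48 CPM (SD, n = 2), a log2 fold change of 0.91 (SE 0.11, adjusted p = 0.000306, edgeR). Mrpl17 lies on the minus strand of chromosome 7 at 105803206 to 105811099 (GRCm38, ENSMUSG00000030879). Mrpl4, which lies along the tunnel of the nascent peptide, was at 53.3 and 51.3 CPM in control and 90.3 and 90.7 CPM in propranolol libraries (log2 fold change 0.79, SE 0.10, adjusted p = 0.000358). Mrpl2, close to the peptidyl transferase centre, went from 40.6 and 42.2 to 74.9 and 66.3 CPM (log2 fold change 0.77, SE 0.12, adjusted p = 0.000693). For these genes each propranolol library was above each control library. Mrpl55 went from 12.2 and 10.7 to 21 and 18.8 CPM (log2 fold change 0.81, SE 0.17, adjusted p = 0.00355). Mrpl28 rose by 0.71 and Mrpl36 by 0.68 on the log2 scale. Mrpl23 was lower in level, at 10.8 and 10.6 CPM in control and 16.4 and 16.5 CPM in propranolol libraries (log2 fold change 0.62, SE 0.17, adjusted p = 0.0131). These 7 were all called with any 1 library left out. When a smooth trend on GC content was removed, Mrpl17, Mrpl36 and Mrpl55 kept their calls, while Mrpl2 (0.44), Mrpl4 (0.47), Mrpl23 (0.37) and Mrpl28 (0.38) fell under the fold threshold. With that trend centred on 0, Mrpl17 alone of the 7 was still called, with Mrpl36 at 0.49 and Mrpl55 at 0.49 (adjusted p = 0.0601). With upper-quartile factors Mrpl23 lost its call (0.56).

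The promoters of the called members with the highest and the lowest fold change are shown because they mark the ends of the range. Each runs from 250 bases before to 50 after the RefSeq start (GRCm38.p6), 5′ to 3′ on the gene's strand. Capitals mark matches to the motif letters searched, GCGCA, any base, then GCGC of the respiratory factor NRF1, CCGGAAG of the ETS family, AAGATGG of YY1 and TATAAA, each on both strands. In the Mrpl17 window, at chr7:105811038-105811337 on the minus strand, the ETS letters stand at -237 to -231 and the NRF1 letters at -49 to -40 from the start. In the Mrps18c window, at chr5:100798509-100798808 on the plus strand, the ETS letters stand on the opposite strand at -156 to -150.
Mrpl17: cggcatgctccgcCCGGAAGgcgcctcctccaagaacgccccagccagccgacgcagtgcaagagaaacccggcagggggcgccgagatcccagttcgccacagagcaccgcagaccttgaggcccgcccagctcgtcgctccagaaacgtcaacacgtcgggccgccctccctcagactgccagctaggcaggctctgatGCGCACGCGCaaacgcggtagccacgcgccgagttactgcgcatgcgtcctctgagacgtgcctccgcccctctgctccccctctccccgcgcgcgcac
Mrps18c: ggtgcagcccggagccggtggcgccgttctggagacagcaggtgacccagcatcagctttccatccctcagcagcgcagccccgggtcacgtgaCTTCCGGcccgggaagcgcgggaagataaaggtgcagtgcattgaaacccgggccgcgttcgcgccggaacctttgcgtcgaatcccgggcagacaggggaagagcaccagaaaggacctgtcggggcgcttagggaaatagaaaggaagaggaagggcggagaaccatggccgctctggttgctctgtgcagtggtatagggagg
RefSeq promoters were matched for 69 of the 78 members. The NRF1 letters were in 13 of them (18.8%) and in 7.17% of 17492 protein-coding genes. The ETS letters were in 26 (37.7%, against 12.9%), the YY1 letters in 13 (18.8%, against 7.18%) and TATAAA in 5 (7.25%, against 14.8%). Of the 11 matched members called higher, 3 held the NRF1 letters, 5 the ETS letters and 2 the YY1 letters. Of the 5 matched members called lower, the counts were 1, 2 and 1. A match is a description of the letters in the window, and the motifs were tested for no relation to the fold changes.

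Among large subunit members found only in mitochondrial ribosomes, Mrpl57 went from 33.1 and 30.4 CPM in control to 56.1 and 55.3 CPM in propranolol libraries (log2 fold change 0.81, SE 0.12, adjusted p = 0.000561). Mrpl43 went from 39.7 and 39.9 to 70.9 and 65.1 CPM (log2 fold change 0.77, SE 0.11, adjusted p = 0.000588). Neither gene had overlapping groups. Of the exon bases of Mrpl43, 33.4% also belong to Twnk, the mitochondrial DNA helicase, whose own log2 fold change was 0.26 (adjusted p = 0.36).

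Of the small subunit, 4 members were called higher. Mrps34, a mitochondria-specific protein on chromosome 17 at 24895116 to 24897502, had 15.6 and 18.2 CPM in control and 32 and 31.3 CPM in propranolol libraries (log2 fold change 0.90, SE 0.14, adjusted p = 0.000854). It shares 77.8% of its exon bases with Mapk8ip3 and Nme3, so its value is uncertain, and Mapk8ip3 had a log2 fold change of 0.85 (adjusted p = 0.00369). Mrps24 had 29.6 and 31.4 CPM in control and 53.8 and 47.1 CPM in propranolol libraries (log2 fold change 0.73, SE 0.12, adjusted p = 0.00134). Both genes were separated by group in every library. Mrps26 had 27.4 and 30.2 CPM in control and 48.4 and 39.7 CPM in propranolol libraries (log2 fold change 0.62, SE 0.14, adjusted p = 0.00537), and was called neither without propranolol library 1 (log2 fold change 0.46) nor with upper-quartile factors (0.56). Mrps16 had 19.9 and 19.5 CPM in control and 36.6 and 26 CPM in propranolol libraries (log2 fold change 0.68, SE 0.17, adjusted p = 0.00981). Its propranolol libraries lay far apart, and without library 1 the log2 fold change was 0.40 (adjusted p = 0.072).

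**Figure D2:**
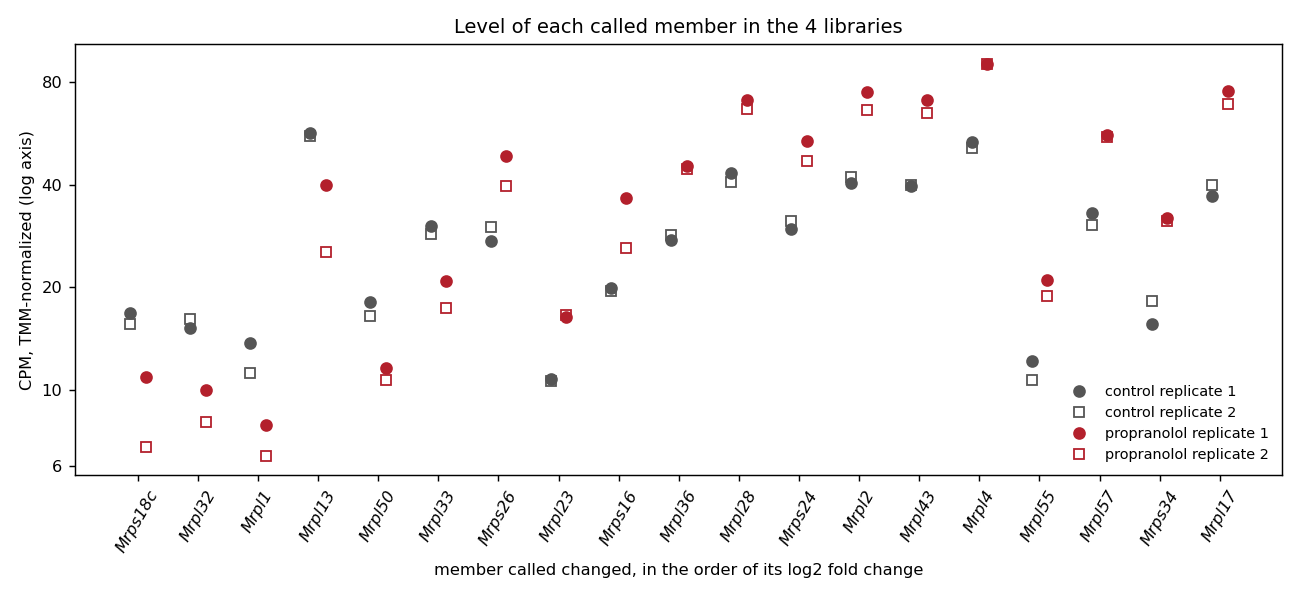
Level (TMM-scaled CPM, log axis) of the 19 called mitochondrial ribosomal proteins in each of the 4 libraries, with control and propranolol libraries as separate points. No gene has overlapping groups, as is so for 72.6% of all tested genes, and these genes were called from the same 4 libraries. The propranolol libraries of Mrps16 and Mrpl13 stand farther apart (36.6 and 26, 39.8 and 25.4) than those of Mrpl4 (90.3 and 90.7).

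The 6 members called lower were 5 of the large subunit and 1 of the small. Mrps18c, one of the S18 paralogues and a protein of the small subunit, was lowest, with 16.8 and 15.6 CPM in control and 10.9 and 6.80 CPM in propranolol libraries (log2 fold change -0.84, SE 0.23, adjusted p = 0.0139). It lies on chromosome 5 at 100798627 to 100804471 and shares 23.2% of its exon bases with Gm43511. Without propranolol library 2 its log2 fold change was -0.54 (adjusted p = 0.0603). Mrpl32, whose maturation is coupled to ribosome assembly, fell from 15.1 and 16.2 to 10 and 8.05 CPM (log2 fold change -0.79, SE 0.19, adjusted p = 0.00753), and was the only one of the 6 called with every library left out in turn. Mrpl1, of the L1 stalk beside the exit site, fell from 13.7 and 11.2 to 7.91 and 6.41 CPM (log2 fold change -0.78, SE 0.21, adjusted p = 0.0144). Its call was lost without control library 1 (-0.58, adjusted p = 0.088) and without propranolol library 2 (-0.62, adjusted p = 0.0614).

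Mrpl13 had 56.9 and 55.4 CPM in control and 39.8 and 25.4 CPM in propranolol libraries (log2 fold change -0.77, SE 0.18, adjusted p = 0.0072). The second propranolol library carried much of this, and without it the log2 fold change was -0.46 (adjusted p = 0.00935), under the fold threshold. Mrpl50 fell from 18.1 and 16.5 to 11.6 and 10.7 CPM (log2 fold change -0.63, SE 0.17, adjusted p = 0.0128), and Mrpl33 from 30.2 and 28.7 to 20.9 and 17.4 CPM (log2 fold change -0.61, SE 0.14, adjusted p = 0.00711). Both calls were lost without control library 1 (-0.51 and -0.52) and without propranolol library 2 (-0.55 and -0.46). Without the filter on low counts both also fell under the fold threshold (-0.56 and -0.54). Mrpl33 and Mrps26 were the members just inside the fold threshold. Just outside it were Mrpl12 (0.57, adjusted p = 0.0143) and Mrpl38 (28.1 and 23 CPM against 41.4 and 32.6, log2 fold change 0.55, adjusted p = 0.0186), which was called without control library 1 (0.75) and without propranolol library 2 (0.73). Without control library 2 and propranolol library 1 it had 0.42 (adjusted p = 0.0831) and 0.36 (adjusted p = 0.0853).

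The L7/L12 stalk, which recruits the translation factors, is made of Mrpl12 on Mrpl10, with Mrpl11 at its base. Mrpl12 had 45.6 and 46.4 CPM in control and 79.7 and 56.4 CPM in propranolol libraries, Mrpl10 37.5 and 35.7 against 44.1 and 42.8 CPM (log2 fold change 0.25, SE 0.12, adjusted p = 0.11), and Mrpl11 27 and 25.2 against 25.5 and 17.5 CPM (log2 fold change -0.26, SE 0.18, adjusted p = 0.264). Mrpl12 was called without control library 1 (0.61), control library 2 (0.60) or propranolol library 2 (0.82), while without propranolol library 1 its log2 fold change was 0.30 (adjusted p = 0.0937). Mrpl11 also rested on the choice of propranolol library, with -0.0021 without library 2 and -0.58 (adjusted p = 0.0132) without library 1. With GC correction Mrpl12 had 0.26, Mrpl10 0.074 and Mrpl11 -0.17, and without TMM they had 0.33, 0.016 and -0.50. With the GC trend centred on 0 the values were 0.13, -0.051 and -0.29. Mammals have 3 S18 paralogues. Beside the lower Mrps18c, Mrps18b of the small subunit had 9.63 and 11 CPM in control and 15.3 and 14.2 CPM in propranolol libraries (log2 fold change 0.52, SE 0.18, adjusted p = 0.0395; called without control library 2, at 0.63, and without propranolol library 2, at 0.60), and Mrps18a of the large subunit had 28 and 28.2 against 38.0 and 31.4 CPM (log2 fold change 0.31, SE 0.14, adjusted p = 0.0931). Without propranolol library 1, Mrps18b had 0.46 (adjusted p = 0.135) and Mrps18a 0.16 (adjusted p = 0.441), and without library 2 Mrps18a had 0.47 (adjusted p = 0.0129). With GC correction Mrps18b had 0.33 and Mrps18a 0.016, and without TMM they had 0.28 and 0.074. With the GC trend centred on 0 the values were 0.21 and -0.11. Differences between paralogues were not tested.

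Levels per length, in TPM (counts per total exon length, scaled to one sum in every library), ran from 4.69 to 164 over the tested members, with a median of 29.3. The most abundant small subunit members were Mrps21, Mrps23 and Mrps24. Mrps21 had 152 ± 0.157 TPM in control and 175 ± 24.2 TPM in propranolol libraries (SD, n = 2) and a log2 fold change of 0.45 (SE 0.14, adjusted p = 0.0245), with a near-identical copy, Gm6181, in the genome. It was called without propranolol library 2 (0.64), and without propranolol library 1 its log2 fold change was 0.27 (adjusted p = 0.153). Mrps23 had a mean of 84.5 TPM and a log2 fold change of 0.36 (adjusted p = 0.056), or 0.18 without propranolol library 1 and 0.54 (adjusted p = 0.00249) without propranolol library 2. In the large subunit Mrpl52 led with a mean of 156 TPM (log2 fold change 0.39, adjusted p = 0.0356, and 0.21 with adjusted p = 0.242 without propranolol library 1), followed by Mrpl2 with 144 and Mrpl28 with 121. At the low end, Mrps30 had a mean of 4.69 TPM (log2 fold change -0.54, SE 0.20, adjusted p = 0.0508). Its direction turned with GC correction (0.28, adjusted p = 0.333), and it was called lower with upper-quartile factors (-0.60) and without TMM (-0.77). Mrpl47 had 6.29 TPM (log2 fold change -0.51, SE 0.22, adjusted p = 0.0935), and was called at -0.77 without propranolol library 1 and had -0.28 (adjusted p = 0.452) without propranolol library 2. Mrps35 had 5.57 TPM (0.10, adjusted p = 0.631, and 0.54 with GC correction) and Mrps22 7.75 TPM (0.08, adjusted p = 0.779). Without TMM both were below 0 (-0.13 and -0.16). Of the 39 more abundant members 9 were called higher and 1 lower, and of the other 38, 4 and 5, against 12.2% and 15.6% of all genes; the difference between these parts of the family was not tested. The Spearman correlation of log2 fold change with TPM was 0.506 over the 77 members and 0.390 over all genes, from the same 4 libraries.

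The replicates within the groups were not equally close. Over the 77 members the median log2 difference of control library 2 from library 1 was -0.041, and that of propranolol library 2 from library 1 was -0.24. In the propranolol pair, 74 of the 77 members were lower in library 2, against 54.9% of all tested genes. The median size of the difference between group means was 0.343 on the same scale, against 0.0849 within control and 0.24 within propranolol. The members together took 0.218% and 0.216% of counts in control and 0.235% and 0.205% in propranolol libraries, so the groups overlapped by this measure.

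**Figure D3:**
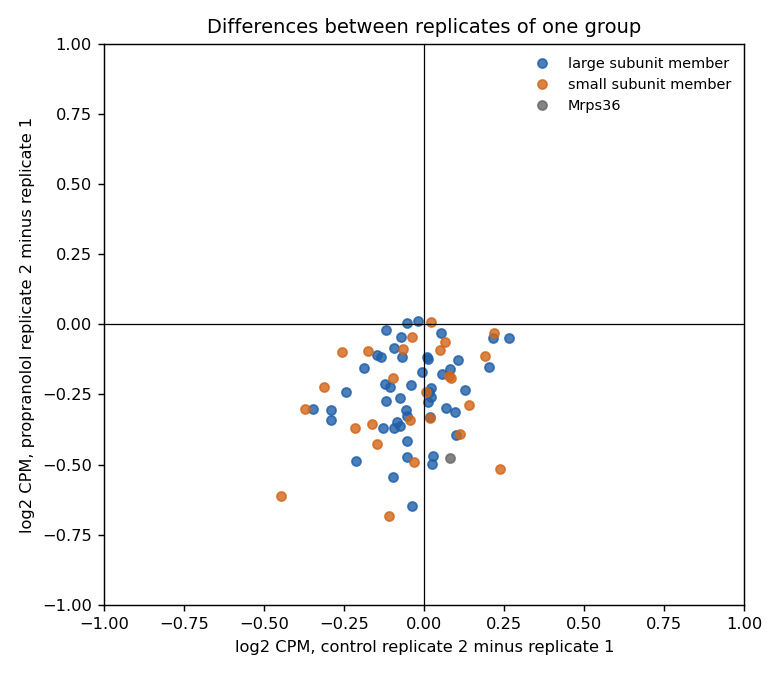
Log2 CPM difference of library 2 from library 1 for the 77 mitochondrial ribosomal proteins, in the control group (horizontal axis) and the propranolol group (vertical axis), each gene a point coloured by subunit. Most points (74 of 77) lie below 0 on the propranolol axis (median -0.24), while on the control axis they spread to both sides of 0 (median -0.041).

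Fold changes rose with the GC content of the longest transcript in the members and in all genes, with a narrower range of bin medians in the members. The Spearman correlation of log2 fold change with GC was 0.457 over the 77 members and 0.577 over 14681 genes. The 13 members called higher had a median GC of 52.8% and the 6 called lower a median of 42.2%. With the genes in 10 bins of rising GC, the median log2 fold change of all genes in the lowest bin was -0.94 and that of the 4 members there was -0.0082. In the second bin the medians were -0.59 for all genes and -0.09 for 9 members, and in the third -0.33 and -0.06 for 11 members. In the highest bin they were 0.46 and 0.44, with 6 members. When a smooth GC trend fitted over all tested genes was removed, 13 members were called higher and 2 lower, against 7.64% and 4.98% of all genes. The correction also shifted the scale of the libraries, and the median log2 fold change of all genes was 0.087 after it. Of the original calls, 7 were kept, all of them higher, and none of the 6 lower calls remained. The higher calls lost were those of Mrpl2, Mrpl4, Mrpl23, Mrpl28, Mrps24 and Mrps34. Of these, Mrps34 was just under the fold threshold at 0.577 (adjusted p = 0.0146), and Mrps24 was at 0.437 (adjusted p = 0.0295). With this correction Mrpl17, whose GC content is 43.0%, had a log2 fold change of 1.45 (SE 0.11, adjusted p = 0.000205), Mrpl57 of 1.43 (adjusted p = 0.000243), and Mrps18c of -0.43 (adjusted p = 0.174). The other lower calls moved toward 0, to -0.36 for Mrpl33, -0.16 for Mrpl32, -0.095 for Mrpl1, -0.058 for Mrpl13 and -0.014 for Mrpl50 (adjusted p from 0.0808 to 0.96). Of the 15 calls, 8 were not made in the uncorrected fit. Mrpl34 and Mrpl40 were newly lower. Newly higher were Mrps9 (0.21 before and 1.24 after the correction), Mrps14 (0.13 and 1.04), Mrpl15 (-0.15 and 0.71), Mrpl51 (0.43 and 0.82), Mrps25 (0.43 and 0.80) and Mrps17 (0.20 and 0.62). With the same correction and the replicate number as a block the counts were also 13 and 2, against 8.04% and 6.44%, and with the trend centred on 0 they were 8 and 3, against 4.34% and 6.47%. With the centred trend the log2 fold changes were 1.33 for Mrpl17, 1.30 for Mrpl57 and -0.55 for Mrps18c. The part of GC content in the calls was not tested beyond this fit.

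**Figure D4:**
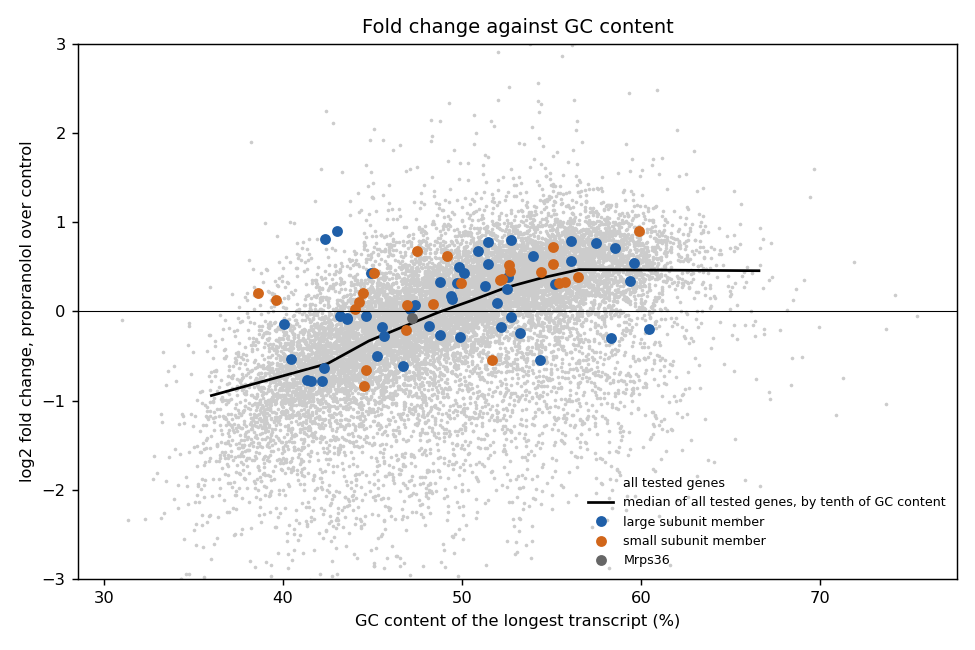
Log2 fold change against GC content of the longest transcript (%) for all tested genes (grey) and the mitochondrial ribosomal proteins (coloured by subunit), with a line through the medians of all genes in 10 bins of GC. The median of all genes climbs from -0.94 in the lowest bin to 0.46 in the highest, and the median of the 4 members in the lowest bin is -0.0082, with members on both sides of the line in the second bin (among those below it Mrpl1, -0.78, and Mrpl32, -0.79); 92 genes lie beyond the axis.

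Exon sharing limits some single values. Of the 78 members, 33 share exon bases with another gene, 18 over more than 10% and 3 over more than 50% of their length. Mrps25 shares 69.8% with Nr2c2 and Mrpl53 88.0% with other annotated genes. Mrpl46 and Mrps11 overlap head to head and had log2 fold changes of -0.06 (adjusted p = 0.822) and 0.54 (SE 0.17, adjusted p = 0.0254). Mrpl22, Mrpl27 and Mrps21 have near-identical copies elsewhere, and the stated counting options name no strand setting.

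Summed over the family, the level changed little beside the spread. The members together had 3305 and 3318 TPM in control and 3684 and 3270 TPM in propranolol libraries, or 3311 ± 9.57 and 3477 ± 293 (SD, n = 2). The second propranolol library lay below both control libraries. The ratio of group means was 1.05 for the family, 1.04 for the large subunit and 1.08 for the small. TPM adds to the same total in every library, so these sums are shares and do not use TMM. A change in a very abundant gene therefore moves the shares of all others. Gm23935, a miRNA gene of 57 exon bases, took 6.48% and 5.52% of TPM in control and 2.35% and 2.63% in propranolol libraries. The shares of Gm24187 and Actb were higher in both propranolol libraries. How far these genes moved the ratios was not tested. With the length of the longest transcript the family ratio was 1.03. Cytosolic ribosomal proteins summed to a ratio of 1.23 and nuclear-encoded respiratory chain subunits to 1.21, each above the control mean in both propranolol libraries (1.25 and 1.2, 1.26 and 1.16). On the TMM scale 32 of 81 cytosolic ribosomal proteins were called higher (39.5%) and 6 lower (7.41%), and their median log2 fold change was 0.42. Of 82 respiratory chain subunits 23 (28%) and 5 (6.1%) were called, with a median of 0.34. The share of all tested genes was 12.2% higher and 15.6% lower. The exact permutation test of 2 against 2 libraries cannot give a p below 0.333, and the sums are given without a test.

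**Figure D5:**
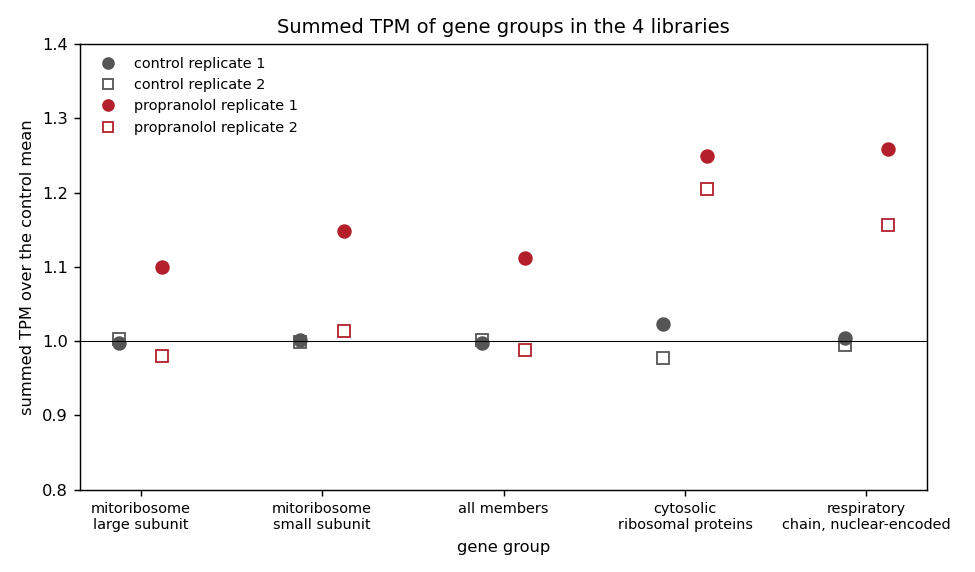
Summed TPM of the large and small subunit, of all members and of 2 other gene families in each library, over the control mean of the same group (the vertical axis starts at 0.8). The mitochondrial ribosomal proteins lie at 0.998 and 1.002 in control and 1.11 and 0.987 in propranolol libraries, while cytosolic ribosomal proteins (1.25 and 1.2) and respiratory chain subunits (1.26 and 1.16) are above 1 in both propranolol libraries.

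Other genes of mitochondrial translation were taken from 5 lists of 86 genes, of which 84 were tested. In all, 12 were called higher (14.3%) and 9 lower (10.7%), against 12.2% and 15.6% of all genes, and the median log2 fold change was 0.18. Without TMM these counts were 6 and 12, against a background of 4.15% and 23.8%, and with GC correction 11 and 1, against 7.64% and 4.98%. At most 1 of the 9 lower calls was therefore kept with GC correction. The same background shares apply to each list. The split of all 84 tested genes into higher and lower calls also moved when 1 library was left out. Of 11 translation factors 1 was called higher, Tufm, the elongation factor that brings aminoacyl-tRNA to the ribosome. Tufm had 32.7 and 32.5 CPM in control and 66.6 and 63.2 CPM in propranolol libraries (log2 fold change 0.99, SE 0.11, adjusted p = 0.000199). Guf1, a back-translocating elongation factor, fell from 16 and 16.1 to 7.53 and 6.74 CPM (adjusted p = 0.000882), and Mtif2, the initiation factor, from 24.5 and 25.5 to 13.8 and 13.5 CPM (log2 fold change -0.87, SE 0.14, adjusted p = 0.00113). All 3 had groups that did not overlap, as did 72.6% of all tested genes.

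Of 17 mitochondrial aminoacyl-tRNA synthetases, Cars2 for cysteine and Vars2 for valine were called higher (log2 fold changes 0.70 and 0.64) and none lower. Lars2, the leucine enzyme and the most abundant, had 1483 and 1236 CPM in control and 1130 and 886 CPM in propranolol libraries (log2 fold change -0.43, SE 0.13, adjusted p = 0.0221), under the fold threshold. Of 26 assembly factors, 7 were called higher and 2 lower. Mrm3, a ribosomal RNA methyltransferase, rose by 1.11 and Ddx28, an RNA helicase, by 0.98 on the log2 scale. The GTPase Gtpbp10 had a log2 fold change of -1.13 and Mterf3 of -0.89 (adjusted p = 0.00972 and 0.0201). Rbfa, the most abundant assembly factor, had a log2 fold change of 0.37 (adjusted p = 0.0202).

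Of 25 genes of mitochondrial RNA synthesis and stability, 2 were called higher and 4 lower. Polrmt, the mitochondrial RNA polymerase, went from 25.9 and 25.8 to 45.9 and 52.3 CPM (log2 fold change 0.92, SE 0.13, adjusted p = 0.000444), and the RNA-binding protein Tbrg4 rose by 0.88. Mtpap, the mitochondrial poly(A) polymerase, fell from 18 and 17.6 to 7.09 and 5.23 CPM (log2 fold change -1.51, SE 0.20, adjusted p = 0.000402). Mterf1a had the lowest value, -1.76, at levels of 1.68 and 0.995 CPM in control and 0.467 and 0.262 CPM in propranolol libraries. Hsd17b10, a subunit of the mitochondrial RNase P and the most abundant, had a log2 fold change of 0.22 (adjusted p = 0.195). Of the 5 mitochondrial ribosomal proteins with other symbols, Ptcd3 fell (log2 fold change -0.66, adjusted p = 0.0124), while Aurkaip1, the most abundant, had a log2 fold change of 0.55 (adjusted p = 0.00697) and Dap3 of -0.26 (adjusted p = 0.119).

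Markers of other cell types moved with the groups, and their counts stand against the 12.2% of all tested genes called higher and 15.6% called lower. The defining markers of macrophages were present, with Adgre1 (F4/80) at means of 990 and 1124 CPM in control and propranolol TAMs and Itgam (CD11b) at 355 and 341 CPM. The 14 macrophage markers summed to 39157 and 36968 CPM in control and 50316 and 48869 CPM in propranolol libraries, with Apoe the most abundant and 1 called higher. Of 15 T and NK cell markers 14 were called lower, and their sum was 365 and 410 CPM in control against 169 and 94.3 CPM in propranolol libraries, led by Nkg7. Of 14 fibroblast and sarcoma markers 10 were called lower and 1, Fn1, higher, with sums of 6018, 3481, 5080 and 4559 CPM in the same order of libraries. Fn1 was also their most abundant gene, and the other 13 markers summed to 3738 and 1423 CPM in control and 819 and 864 CPM in propranolol libraries, with control library 1 standing apart. Of 11 neutrophil markers 7 were tested and 5 called higher, with sums of 179, 196, 352 and 378 CPM, led by S100a9. Of 7 B cell markers 4 were tested, 2 called higher and 1 lower (sums of 160, 186, 188 and 215 CPM, led by Ighm). Of 6 endothelial markers 5 were tested and 1 called higher (sums of 49.4, 47.6, 62.7 and 61.2 CPM, led by Pecam1). No marker was at 0 in all 4 libraries. Of 20 cell cycle genes 5 were called higher and 4 lower (25% and 20%, median log2 fold change 0.17). The part of these cells in the values of the mitochondrial ribosomal proteins was not tested.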

How the data were processed

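Per the labels and the study's methods, the authors aligned reads with STAR 2.7.1a to mm10, filtered them with SAMtools 1.9 and counted exons per gene with featureCounts 1.6.4. The deposited values are raw counts per gene and library, not normalized. The counting options stated cover read pairs and exons and name no strand setting, whose default ignores strand. The GENCODE release is not given in the sources used here. Of 54146 Ensembl IDs, 54079 matched GENCODE M21, and 25803 genes had no counts. No column of per-sample values was left out.

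Counts were tested with edgeR 4.0.16 in R 4.3.3 (TMM, filterByExpr with a minimum count of 10, quasi-likelihood test, Benjamini-Hochberg over all 14688 tested genes), with 2 libraries a group and no covariate. TMM factors were 1.08 and 1.09 for control and 0.914 and 0.931 for propranolol. The common dispersion was 0.0172. Replicates differed beyond sampling noise, with chi-square per degree of freedom of 10.6 in control and 13.7 in propranolol. A called gene had an adjusted p under 0.05 and a change over 1.5-fold. TPM used the total exon length per gene. The procedure was tested on simulated data, and the outcome of that test is not reported here. Near-identical copies had at least 95% identity over at least 50% of the length. Promoters came from RefSeq (GRCm38.p6). GC correction entered as offsets each library's natural spline (5 degrees of freedom) of log2 CPM deviation from the gene's mean on the GC content of the longest transcript. The fitted values kept their mean, so this correction also moved the scale of each library. The median log2 fold change of all genes was 0.087 with it and -0.038 with the trend centred on 0.

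Named were the called members (by rule the 8 with the highest and the 8 with the lowest fold change; Mrpl28 is also among the most abundant, and Mrpl36 and Mrps16 were added after their values were seen), the 3 most and 2 least abundant members of each subunit, untested members, the stalk and S18 members, those beside the fold threshold, and from each pathway list the called genes (beyond 4, the 2 highest and 2 lowest) and the most abundant gene. Twnk, Mapk8ip3 and other overlapping genes, and Mrps25, Mrps11, Mrpl46, Mrpl34 and Mrpl40 and the members newly called with GC correction, were named after seeing the data. The members and all gene lists were chosen with earlier results of these data known. Alternatives were DESeq2 1.42.0, other scalings, filters and thresholds, leaving out each library, a replicate block and GC correction.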

Additional observations from a re-analysis of the deposited data

How the results depend on the processing

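None of the 19 called members changed sign under the alternatives run, but with GC correction Mrpl50 (-0.014), Mrpl13 (-0.058) and Mrpl1 (-0.095) were close to 0. With DESeq2 13 members were called higher and 6 lower, against 11.9% and 13.8% of all genes. With upper-quartile factors these were 11 and 9, against 9.65% and 17.2%. With no filter they were 18 and 4, against 8.19% and 7.57%. The members called, and their split into higher and lower, changed with the library left out. Over all genes, leaving out 1 library gave 3615 to 4329 calls against 4084, and over the pathway genes 19 to 28 against 21; the median log2 fold change of the members ran from 0.12 to 0.32. GC correction left 1854 genes and 12 pathway genes called (15 members). With the trend centred on 0, an alternative chosen after seeing the data, 1588 genes, 7 pathway genes and 11 members were called, with Mrpl17, Mrpl57 and Mrps16 kept from the 19. Without the fold threshold 6204 genes, 33 pathway genes and 33 members were called, and at a log2 fold change over 1.5 these were 728, 2 and 0. The study's methods state this last cut-off, while its results state more than 1.5-fold. The stricter glmTreat test against 1.5-fold gave 1093, 7 and 1, Mrpl17. Without TMM, also chosen after seeing the data, the median of the members turned to -0.033 and 13 members were called, 8 of them among the 19. The replicate numbers share only a number in the labels, and same-numbered libraries had a correlation of deviations of 0.169. With a replicate block 20 members, 4362 genes and 21 pathway genes were called, and with the replicate block and GC correction 15, 2127 and 12. With 2 libraries a group, a left-out library leaves a lone sample that is assumed to vary like the other group.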
